A study of Mus musculus with 7 samples.

Results

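The genes described here are the translation initiation and elongation factors of LLC1 cells, a cultured tumour line from a mouse Lewis lung carcinoma. Members were the rows of the deposited count table whose symbol begins with Eif or Eef followed by a digit, without the eIF2 kinases Eif2ak1 to Eif2ak4. The rule took 60 of the 24419 genes in the table, by name and not by any measured value. Gene expression was measured by sequencing polyadenylated RNA in 3 libraries of LLC1 cells with Ddx54 knocked down by an shRNA and in 4 libraries labelled WT DDX54. Ddx54 encodes a nucleolar DEAD-box RNA helicase, and the comparison asks how transcripts of the tumour cells differ when it is lowered. All 7 libraries came from cells grown in DMEM with serum. The labels give neither the sequence of the shRNA nor a control construct, and they do not say whether the cells were a clone or a pool. Nor do they say whether replicates were separate cultures, so p-values measure only the spread between these libraries, which may be technical.

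Protein synthesis starts when eIF2 brings the initiator tRNA to the small ribosomal subunit together with eIF1, eIF1A, eIF3 and eIF5. The cap-binding complex eIF4F, made of eIF4E, eIF4G and the helicase eIF4A, loads that subunit onto the mRNA, and 4E-binding proteins block the step when mTORC1 is inactive. After eIF5B joins the subunits, eEF1A delivers aminoacyl-tRNAs, eEF1B recharges eEF1A with GTP, and eEF2 moves the ribosome along. In tumour cells these factors are known as outputs of the mTORC1 and Myc pathways, and eIF2 is the hub of the integrated stress response.

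Library totals ranged from 14987324 to 18673395 counts. CPM stands here for a gene's count after scaling by library size and TMM factors. The test was edgeR's quasi-likelihood test over all 11594 genes that passed the low-count filter, with Benjamini-Hochberg adjustment and a threshold of 0.05. Fold changes are knockdown over wild-type on the log2 scale. Ddx54 was at 45.9, 39.2 and 45.8 CPM in the knockdown libraries, against 80.4, 82.5, 78.6 and 83.2 CPM in the wild-type libraries. No library went against its label. In every knockdown library Rn45s, the ribosomal RNA precursor, took 7.96% to 9.07% of counts, against 10.7% to 12.5% in every wild-type library, and 13105 to 13347 genes were detected in knockdown, against 12698 to 12875 in wild-type. Of 17 markers of epithelial, mesenchymal, leukocyte, endothelial and erythroid cells 7 could be tested. Of these 3 fell and 0 rose, while 15.3% of all tested genes fell. The 3 were the keratins Krt18 (-0.72, adjusted p = 4.62e-10) and Krt19 (-2.03, adjusted p = 0.000811), of epithelial cells, and Fn1 (-0.61, adjusted p = 0.00918), which encodes fibronectin. The ranges of Fn1 overlapped. The keratin Krt8 (0.22, adjusted p = 0.373), the mesenchymal gene Cdh2 (0.19, adjusted p = 0.536) and the leukocyte gene Cd68 (0.05, adjusted p = 0.94) did not pass. Vim, of mesenchymal cells, was high in both groups and did not pass (-0.11, adjusted p = 0.101). The 10 untested markers, among them the epithelial genes Epcam and Cdh1 and the leukocyte gene Ptprc, had at most 34 counts over all 7 libraries. The markers of leukocytes, endothelium and erythroid cells summed to 3.12 to 4.65 CPM in knockdown and 2.73 to 5.82 CPM in wild-type. The part of Krt18, Krt19, Fn1, Rn45s and gene detection in the results below was not tested. All 24 called members kept their call without Rn45s, but removing that row mainly rescales the libraries, so it does not test this part. In a culture of this kind, fewer cells of one state and less RNA per cell cannot be told apart.

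Of the 60 members, 55 could be tested, and 17 of these fell in knockdown, 7 rose and 31 did not pass. The lower calls were 30.9% of the tested members, against 15.3% of all tested genes. The higher calls were 12.7%, against 14.1% of all tested genes. All changes were moderate: the largest was 0.79 log2 units, and 0 of the 24 called members reached 1 log2 unit. The median log2 fold change was -0.06 over the tested members and 0.001 over all tested genes. Counting libraries without a test, the knockdown values lay wholly below the wild-type values for 18 members (32.7%, against 17.6% of all tested genes) and wholly above them for 13 (23.6%, against 17.5%). Of the 24 called members, Eef1g was the 1 whose ranges overlapped. With the alternatives listed for the processing, 15 of the 24 calls were kept under each of the 16 other settings, and 9 were lost under at least 1.

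**Figure D1:**
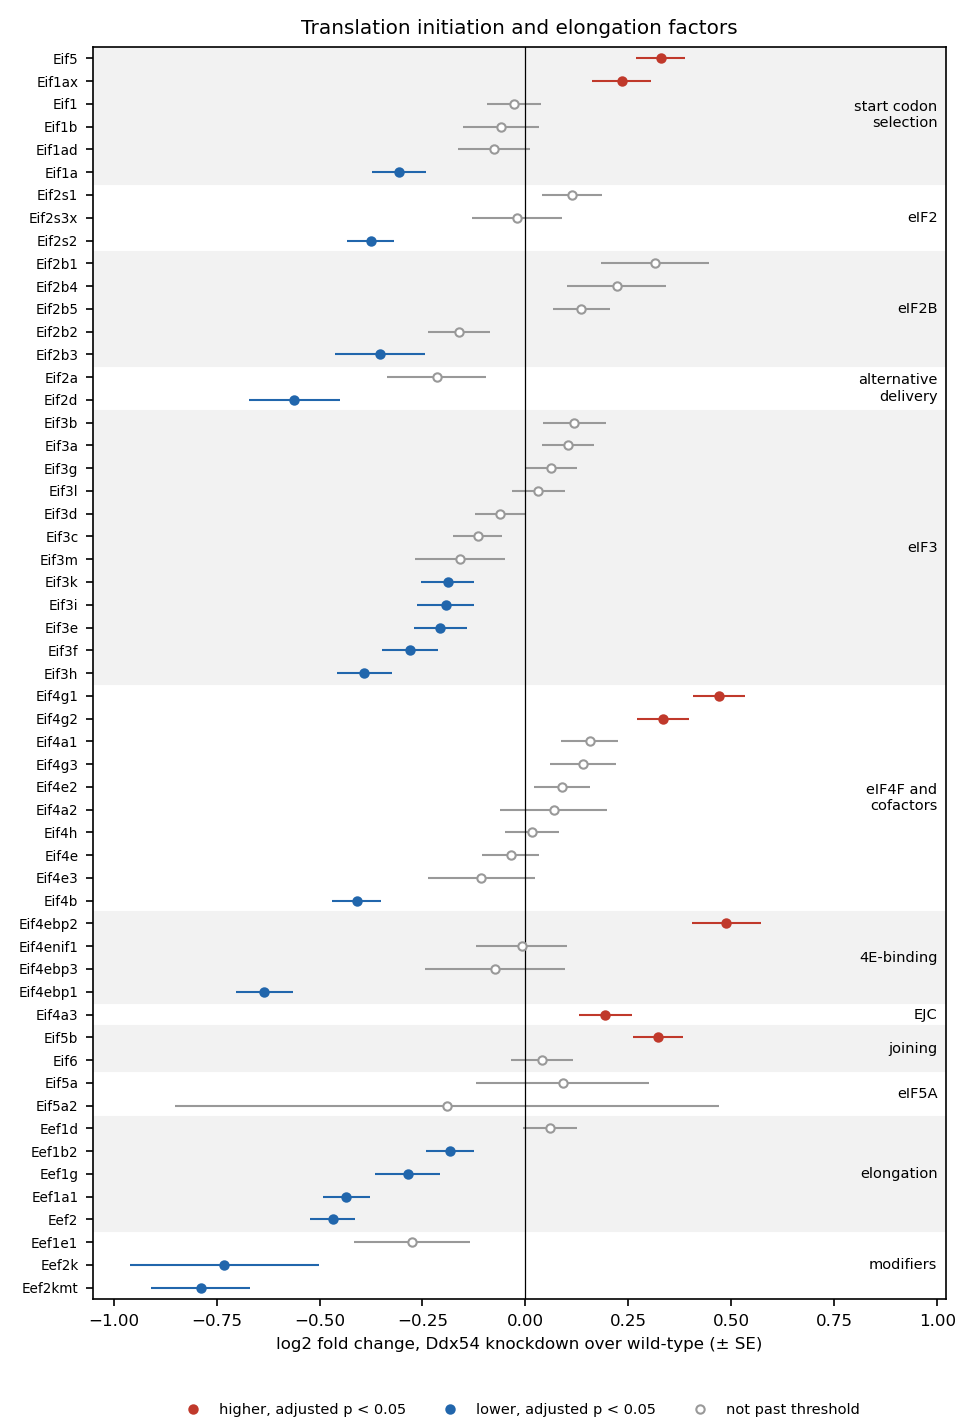
Log2 fold change of Ddx54 knockdown over wild-type (x axis) with its standard error for the 55 tested members, grouped by role down the y axis; filled points passed the threshold. Of the elongation factors 4 of 5 and of the eIF3 subunits 8 of 12 lie to the left of 0 (4 and 5 of these passed), while Eif4g1, Eif4g2, Eif5, Eif5b and Eif4ebp2 lie to the right.

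The elongation factors fell, with 4 of 5 tested members lower and a median log2 fold change of -0.29. Eef2, the translocase that moves the ribosome by a codon (chromosome 10, 81176631 to 81182498, plus strand, GRCm38/mm10), was at 2055, 2018 and 1979 CPM in the knockdown libraries, against 2845, 2892, 2715 and 2708 CPM in the wild-type libraries. The 2 groups were well apart, and Eef2 fell (log2 fold change -0.47, SE 0.055, adjusted p = 3.53e-08, edgeR). Eef1a1, the carrier of aminoacyl-tRNA and the member with the highest level (chromosome 9, 78478449 to 78489151, minus strand), was at 2442, 2553 and 2472 CPM in the knockdown libraries, against 3312, 3659.9, 3246 and 3239 CPM in the wild-type libraries. Every knockdown library was below every wild-type library, and Eef1a1 fell to 74.0% of its wild-type level (log2 fold change -0.43, SE 0.057, adjusted p = 2.79e-07). Of its stretches of 50 bases, 60.6% also occur in a transcript of another annotated gene. How the counting treated such reads is not stated in the sources at hand.

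The subunits of the exchange factor eEF1B moved unequally. Eef1g, the gamma subunit, was at 567, 456 and 436 CPM in the knockdown libraries, against 614, 631, 520.4 and 608 CPM in the wild-type libraries. Knockdown replicate 1 lay inside the wild-type range, and the fall (log2 fold change -0.29, SE 0.078, adjusted p = 0.00627) was lost without knockdown replicate 2 or 3 (adjusted p up to 0.0633, edgeR). Of the Eef1g stretches, 64.3% occur in another gene. Eef1b2, the nucleotide exchange subunit, was at 1412, 1381 and 1359.7 CPM in the knockdown libraries, against 1561, 1645, 1652 and 1428 CPM in the wild-type libraries. The fall was small (log2 fold change -0.18, SE 0.059, adjusted p = 0.0169) and was lost without knockdown replicate 2 or 3 or wild-type replicate 3 (adjusted p up to 0.0821, edgeR). Eef1d, the delta subunit, averaged 378 ± 32.9 CPM in knockdown and 362 ± 10.8 CPM in wild-type and did not pass (0.06, adjusted p = 0.548). Summed over the group, elongation factors came to 6754 ± 149 CPM in knockdown (SD, n = 3) and 8682 ± 372 CPM in wild-type (SD, n = 4), or 77.8% of wild-type. Members other than Eef1a1 and Eef2 summed to 18266 ± 389 CPM in knockdown (SD, n = 3) and 18315 ± 133 CPM in wild-type (SD, n = 4), and these ranges overlapped.

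Eef2kmt and Eef2k, which encode enzymes that act on eEF2, were also lower. Eef2kmt, a lysine methyltransferase of eEF2, had the largest change of any member and was at 34.3, 30.6 and 26.7 CPM in the knockdown libraries, against 49.7, 46.6, 54.7 and 60.1 CPM in the wild-type libraries. The groups did not overlap, and the fall held under every setting tried (log2 fold change -0.79, SE 0.12, adjusted p = 5.74e-06). Of its stretches, 26.1% occur in another gene, and its exons overlap those of Alg1 on the opposite strand. Of the called members 5 have such an overlap, with Eef1b2, Eef2k, Eif2d and Eif5b beside Eef2kmt, and without a known strand setting reads of the overlapping genes cannot be told apart. Eef2k, the kinase that inhibits eEF2, was a low-level transcript at 5.31, 6.24 and 7.03 CPM in the knockdown libraries, against 9.27, 10.4, 9.54 and 11.9 CPM in the wild-type libraries. It fell (log2 fold change -0.73, SE 0.23, adjusted p = 0.0159), but the call was lost without knockdown replicate 1 or wild-type replicate 4 (adjusted p up to 0.0808, edgeR). Eef1e1, a scaffold factor of the multi-synthetase complex, averaged 22.7 ± 0.756 CPM in knockdown and 27.4 ± 1.97 CPM in wild-type and did not pass (-0.28, adjusted p = 0.139), although its ranges did not overlap.

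Transcripts of all elongation factors, of eIF3e, eIF3f and eIF3h and of eIF4B are known, from work in mammalian cells, to begin with a terminal oligopyrimidine (TOP) tract, a C followed by a run of pyrimidines that puts their translation under mTORC1. This list of 9 tested members was written after the values were seen and carries no test. It may leave out other members with such a tract. The counts below therefore do not show that TOP transcripts fell and others did not. In it 8 fell and 0 rose, with a median log2 fold change of -0.29; the 1 that did not pass was Eef1d. Among the other 46 tested members 9 fell and 7 rose, with a median of -0.01. To show pyrimidine stretches near annotated starts, the following windows run from 40 bases before to 30 bases after the RefSeq start (GRCm38.p6), 5′ to 3′. Whether a marked stretch is the TOP tract of the transcript was not tested. Capitals mark the longest stretch of a C followed by at least 4 bases that are each C or T, or both where 2 are equally long, and a window with no capitals has no such stretch.
Eef1a1, lower in knockdown, chr9:78481695-78481764, minus strand: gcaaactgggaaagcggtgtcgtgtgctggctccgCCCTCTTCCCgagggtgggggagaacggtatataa
Eef2, lower in knockdown, chr10:81176591-81176660, plus strand: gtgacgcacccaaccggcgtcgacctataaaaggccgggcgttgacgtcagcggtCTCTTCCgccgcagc
Eif4b, lower in knockdown, chr15:102073733-102073802, plus strand: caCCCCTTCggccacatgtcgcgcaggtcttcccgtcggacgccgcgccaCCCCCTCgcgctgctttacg
Eif3f, lower in knockdown, chr7:108934375-108934444, plus strand: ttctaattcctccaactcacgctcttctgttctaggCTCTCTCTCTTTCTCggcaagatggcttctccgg
Eif2s2, lower in knockdown, chr2:154892877-154892946, minus strand: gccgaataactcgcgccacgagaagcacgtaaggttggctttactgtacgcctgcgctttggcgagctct
Eif4g1, higher in knockdown, chr16:20672687-20672756, plus strand: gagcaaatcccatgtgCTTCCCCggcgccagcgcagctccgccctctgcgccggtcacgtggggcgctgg
Eif5, higher in knockdown, chr12:111538061-111538130, plus strand: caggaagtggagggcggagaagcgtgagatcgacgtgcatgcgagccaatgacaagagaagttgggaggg
Eif5b, higher in knockdown, chr1:37997970-37998039, plus strand: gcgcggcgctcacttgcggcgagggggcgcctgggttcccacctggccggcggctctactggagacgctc
The window of Eif3f holds a stretch of 15 pyrimidines across its annotated start, and that of Eef1a1 one of 10. The Eef1a1 window ends in a TATA sequence, an element of promoters, which lies after that stretch. The stretch marked for Eef1a1 may thus be promoter and not part of the transcript. The window of Eef2 holds a stretch of 7 that begins at base 16 after the start. The window of Eif4b holds 2 stretches of 7, which begin 38 bases before the start and at base 11 after it. That of Eif4g1, which rose, also holds one of 7, beginning 24 bases before the start. Those of Eif2s2, which fell, and of Eif5 and Eif5b, which rose, hold none, so the windows shown do not sort by direction. RefSeq promoters of 300 bases were found for 46 of the 60 members, 16 of them called. A wider search covered 50 bases around the start on the same strand. There a C followed by at least 4 such bases occurred in 10 of 10 lower members and 3 of 6 higher members. It also occurred in 24 of 27 members that did not pass. Eif2s2 is counted among the lower and Eif5b among the higher members, as this search reaches beyond their windows. The short form is common and occurred in 79.7% of all genes with a promoter. With at least 7 such bases the counts were 6 of 10 lower members, 1 of 6 higher members and 32.0% of all genes. Among members that did not pass, this longer form occurred in 11 of 27. The differences in shares were not tested. Annotated starts can differ from the starts used in LLC1, which were not measured here.

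**Figure D2:**
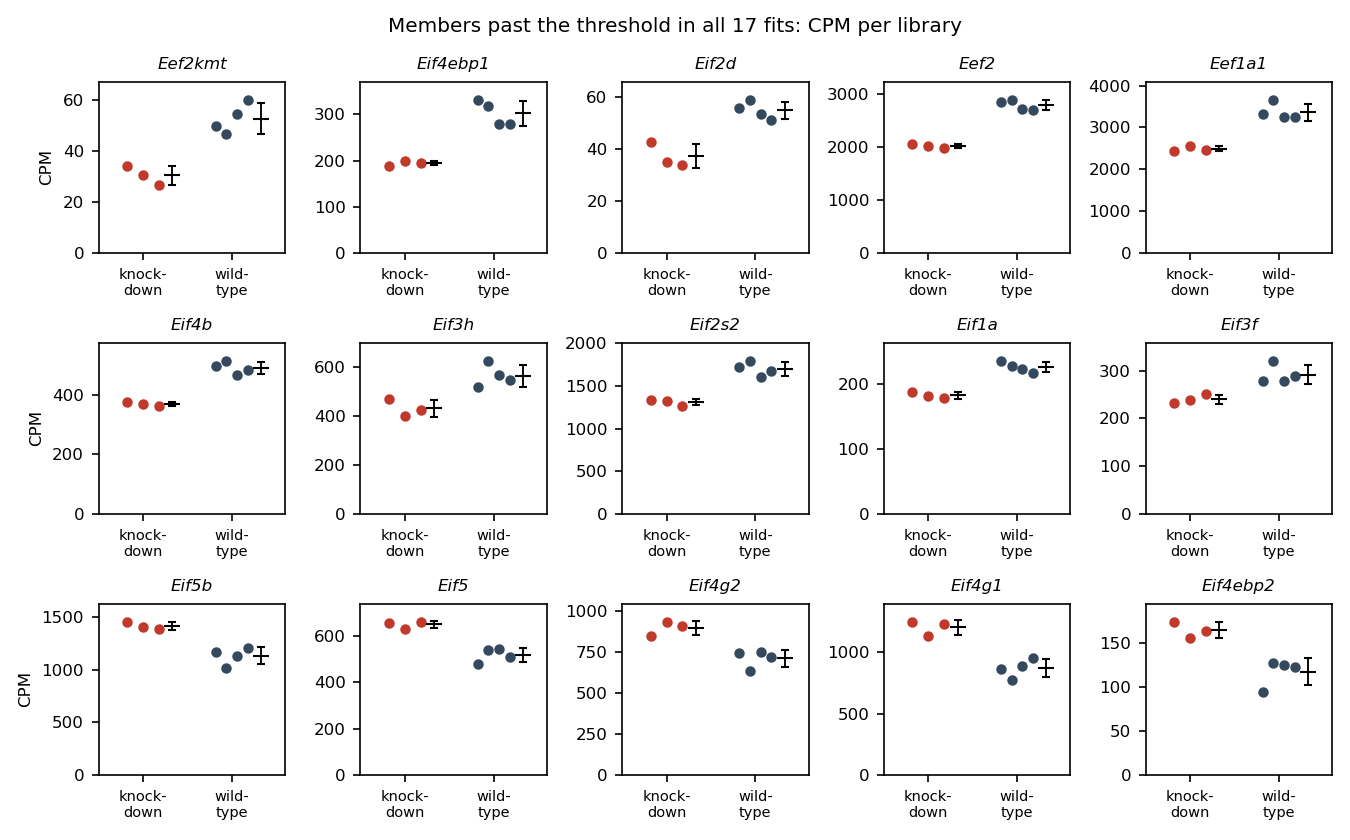
CPM (y axis, from 0) in each library for the 15 members whose call was kept in all 17 fits, with knockdown on the left and wild-type on the right of each panel; the bar gives the mean ± SD (n = 3 and n = 4). The first 10 panels are lower in knockdown and the last 5, from Eif5b to Eif4ebp2, are higher, with no overlap between groups.

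In the cap-binding complex and its cofactors, the scaffold Eif4g1 and its relative Eif4g2 rose and the cofactor Eif4b fell. Of 10 tested members 2 rose, 1 fell and 7 did not pass, with a median log2 fold change of 0.08. Eif4g1, the scaffold that bridges cap and ribosome (chromosome 16, 20668313 to 20692884, plus strand), was at 1246, 1135 and 1227 CPM in the knockdown libraries, against 859, 775, 889.6 and 949 CPM in the wild-type libraries. The lowest knockdown library exceeded the highest wild-type library, and Eif4g1 rose (log2 fold change 0.47, SE 0.063, adjusted p = 4.49e-07). Eif4g2, a relative of eIF4G that lacks the eIF4E-binding part and serves cap-independent initiation, was at 847, 932 and 907 CPM in the knockdown libraries, against 742, 633, 746 and 721 CPM in the wild-type libraries. It rose without overlap (log2 fold change 0.33, SE 0.063, adjusted p = 9.14e-05). Eif4b, the cofactor that stimulates the eIF4A helicase, moved the other way, at 377, 369 and 361 CPM in the knockdown libraries, against 497, 514, 467 and 484 CPM in the wild-type libraries. Its knockdown libraries spanned a narrow range well under wild-type (log2 fold change -0.41, SE 0.06, adjusted p = 2.52e-06).

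Eif4e, the cap-binding subunit, was at 191, 189.7 and 176 CPM in the knockdown libraries, against 182, 182, 191 and 205 CPM in the wild-type libraries. The ranges overlapped and the difference did not pass (log2 fold change -0.04, SE 0.069, adjusted p = 0.751). Eif4a1, the main helicase subunit, averaged 287 ± 5.08 CPM in knockdown and 258 ± 24 CPM in wild-type and did not pass (0.16, adjusted p = 0.092), although without wild-type replicate 2 it passed as higher (adjusted p = 0.0498, edgeR). Of its stretches, 33.3% occur in another gene. Eif4g3 (0.14), Eif4e2 (0.09), Eif4e3 (-0.11), Eif4a2 (0.07) and Eif4h (0.02) also did not pass. Ratios between members within a library do not depend on the scaling of the libraries, and they set the subunits side by side. The log2 ratio of Eif4g1 to Eif4e was 2.71, 2.58 and 2.80 in knockdown, against 2.24, 2.09, 2.22 and 2.21 in wild-type. Eif4b relative to Eif4g1 had log2 ratios of -1.72, -1.62 and -1.76 in knockdown, against -0.79, -0.59, -0.93 and -0.97 in wild-type. Neither pair of ranges overlapped, and the larger gap was that between cofactor and scaffold. Eif4g1 relative to its paralog Eif4g3 had log2 ratios of 2.52, 2.31 and 2.18 in knockdown, against 1.93, 2.10, 1.92 and 2.07 in wild-type, again without overlap. The ratio of the helicase paralogs Eif4a1 and Eif4a2 averaged 3.12 in knockdown and 3.03 in wild-type on the log2 scale, and its ranges overlapped.

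The 4E-binding proteins, which sequester eIF4E, moved in opposite directions. Eif4ebp1, which encodes 4E-BP1 and is known as a target of the stress factor ATF4 (chromosome 8, 27260329 to 27276674, plus strand), was at 189, 199.5 and 195 CPM in the knockdown libraries, against 331, 318, 279 and 280.0 CPM in the wild-type libraries. The fall to 64.4% of wild-type was the call with the smallest adjusted p among the members (log2 fold change -0.63, SE 0.07, adjusted p = 1.21e-08). Eif4ebp2, its paralog (chromosome 10, 61428491 to 61452661, minus strand), was at 173, 155 and 163 CPM in the knockdown libraries, against 94.5, 127, 125 and 122 CPM in the wild-type libraries. It rose (log2 fold change 0.49, SE 0.084, adjusted p = 2.85e-05), and without wild-type replicate 1, which was lower than the other wild-type libraries, the rise was 0.39 (adjusted p = 0.000159, edgeR). The log2 ratio of Eif4ebp1 to Eif4ebp2 was 0.12, 0.36 and 0.26 in knockdown, against 1.81, 1.33, 1.16 and 1.19 in wild-type. Eif4ebp1 had more counts than Eif4ebp2 in all 7 libraries, with a smaller excess in each knockdown library than in any wild-type library. Eif4ebp3 (-0.07, adjusted p = 0.788) and Eif4enif1, the carrier that moves eIF4E into the nucleus (-0.01, adjusted p = 0.966), did not pass. Summed over the group, 4E-binding members came to 443 ± 9.63 CPM in knockdown (SD, n = 3) and 505 ± 18 CPM in wild-type (SD, n = 4).

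**Figure D3:**
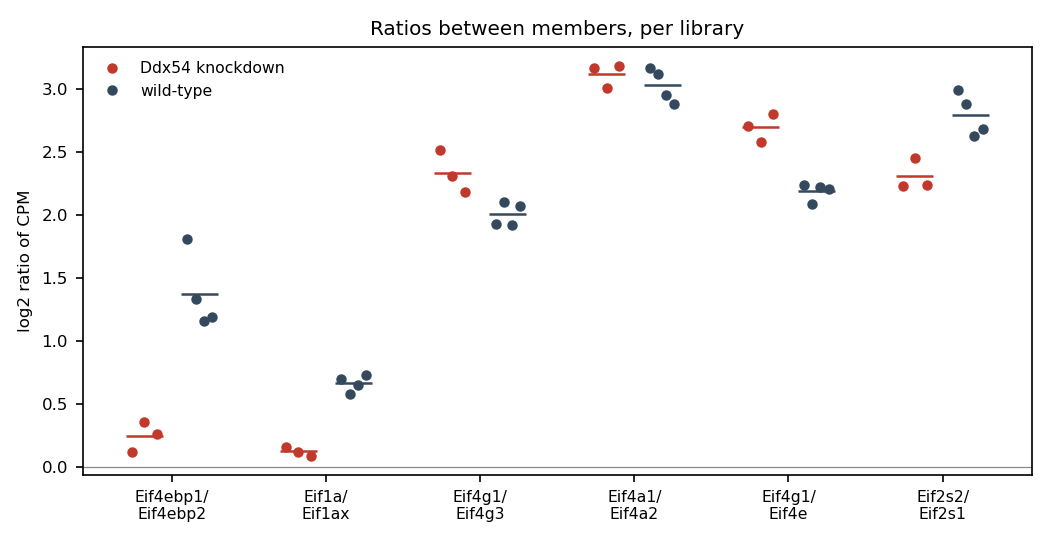
Log2 ratio of CPM between pairs of members (y axis) in each library, knockdown left of wild-type in each pair, with the group mean as a line. The ratio Eif4ebp1/Eif4ebp2 averaged 0.25 in knockdown and 1.37 in wild-type, while the ranges of Eif4a1/Eif4a2 overlapped.

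Of the subunits of eIF2, the GTPase that carries the initiator tRNA, Eif2s2 fell and the others did not pass. Eif2s2, the beta subunit (chromosome 2, 154871410 to 154892935, minus strand), was at 1335, 1325 and 1272 CPM in the knockdown libraries, against 1723, 1796, 1609 and 1673 CPM in the wild-type libraries. No values overlapped (log2 fold change -0.38, SE 0.057, adjusted p = 4.1e-06). Eif2s1, the alpha subunit that stress kinases phosphorylate, was at 285, 243 and 269.5 CPM in the knockdown libraries, against 217, 245, 259 and 262 CPM in the wild-type libraries. Its ranges overlapped and it did not pass (0.11, adjusted p = 0.256). Eif2s3x, the X-linked gamma subunit, averaged 55.7 ± 5.76 CPM in knockdown and 56.4 ± 5.12 CPM in wild-type and did not pass (-0.02, adjusted p = 0.917). The log2 ratio of Eif2s2 to Eif2s1 was 2.23, 2.45 and 2.24 in knockdown, against 2.99, 2.88, 2.63 and 2.68 in wild-type.

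In eIF2B, the exchange factor that recharges eIF2 and that phosphorylated eIF2 inhibits, 1 of 5 subunits passed. Eif2b3, the gamma subunit of the catalytic part, was at 47.4, 47.3 and 37.9 CPM in the knockdown libraries, against 56.9, 55.8, 58.2 and 55.4 CPM in the wild-type libraries. It fell (log2 fold change -0.35, SE 0.11, adjusted p = 0.0118), and the call was lost without knockdown replicate 3 (adjusted p = 0.128, edgeR). The other subunits had log2 fold changes of 0.31 for Eif2b1, 0.22 for Eif2b4, 0.14 for Eif2b5 and -0.16 for Eif2b2, with adjusted p from 0.0598 to 0.165. Their ranges did not overlap in any of these 4 cases, and after adjusting for base composition and transcript length Eif2b1, Eif2b4 and Eif2b5 passed as higher (adjusted p from 0.0242 to 0.0322, edgeR). Eif2b1 also passed without wild-type replicate 2 (adjusted p = 0.0337, edgeR). Eif2d, also called ligatin, can deliver initiator tRNA without GTP and was at 42.6, 35.2 and 34 CPM in the knockdown libraries, against 56, 59, 53.6 and 51.4 CPM in the wild-type libraries. It fell under every setting (log2 fold change -0.56, SE 0.11, adjusted p = 0.000228). Eif2a, which also acts outside the eIF2 route, averaged 39.3 ± 5.08 CPM in knockdown and 45.7 ± 5.36 CPM in wild-type and did not pass (-0.22, adjusted p = 0.196).

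The factors that choose the start codon were split. Eif5, the GTPase-activating protein of eIF2, was at 658, 630.4 and 661 CPM in the knockdown libraries, against 481, 538, 543 and 507 CPM in the wild-type libraries. It rose with no overlap (log2 fold change 0.33, SE 0.06, adjusted p = 6.65e-05). The 2 eIF1A genes diverged. Eif1a was at 188, 183 and 178 CPM in the knockdown libraries, against 236, 228, 224 and 218 CPM in the wild-type libraries. Its groups did not overlap and it fell (log2 fold change -0.31, SE 0.066, adjusted p = 0.00049). Eif1ax, the X-linked copy, was at 169, 168 and 168 CPM in the knockdown libraries, against 146, 152, 143 and 131 CPM in the wild-type libraries. The knockdown libraries were nearly equal and above each wild-type library (log2 fold change 0.23, SE 0.071, adjusted p = 0.0115), and the call was lost after adjusting for base composition and transcript length (adjusted p = 0.0958, edgeR). The log2 ratio of Eif1a to Eif1ax was 0.16, 0.12 and 0.09 in knockdown, against 0.70, 0.58, 0.65 and 0.73 in wild-type. Eif1, the gatekeeper of start codon stringency (-0.03, adjusted p = 0.799), and Eif1b (-0.06, adjusted p = 0.676) did not pass. Nor did Eif1ad, which is grouped here but is not known as a start codon factor (-0.08, adjusted p = 0.568).

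Of 12 tested subunits of eIF3, the largest initiation factor and the platform on the small subunit, 5 fell, 0 rose and 7 did not pass, with a median log2 fold change of -0.14. Eif3h was at 469, 399 and 425 CPM in the knockdown libraries, against 519, 626, 569 and 547 CPM in the wild-type libraries. It fell most (log2 fold change -0.39, SE 0.067, adjusted p = 2.77e-05), and 26.2% of its stretches occur in another gene. Eif3f was at 231, 237 and 251 CPM in the knockdown libraries, against 278, 320.2, 278 and 289 CPM in the wild-type libraries, again without overlap (log2 fold change -0.28, SE 0.067, adjusted p = 0.00147). Eif3h and Eif3f encode the pair of MPN-domain subunits of the complex. Eif3e, of the same outer arm, was at 395, 411 and 387 CPM in the knockdown libraries, against 459.6, 467, 498 and 411 CPM in the wild-type libraries. Its highest knockdown value was just under the lowest wild-type value (log2 fold change -0.21, SE 0.065, adjusted p = 0.0142), and the call was lost without knockdown replicate 1 or 3 or wild-type replicate 3 (adjusted p up to 0.0768, edgeR). Eif3i, a WD-repeat subunit, was at 169.6, 182 and 188 CPM in the knockdown libraries, against 213, 217, 204 and 189.9 CPM in the wild-type libraries. Its highest knockdown value was again just under the lowest wild-type value.

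The falls of Eif3i (log2 fold change -0.19, SE 0.07, adjusted p = 0.0332) and Eif3k (log2 fold change -0.19, SE 0.064, adjusted p = 0.0244) were the least stable. Eif3i lost its call without knockdown replicate 1 or 2 or wild-type replicate 1 or 2 (adjusted p up to 0.18, edgeR). Eif3k lost it without knockdown replicate 1 or 2 or wild-type replicate 2 or 3, and after adjusting for base composition and transcript length (adjusted p up to 0.105, edgeR). Eif3a, the largest scaffold, averaged 2034 ± 67.3 CPM in knockdown and 1894 ± 183 CPM in wild-type (0.10, adjusted p = 0.236). Eif3b (0.12), Eif3c (-0.12), Eif3d (-0.06), Eif3g (0.06), Eif3l (0.03) and Eif3m (-0.16) did not pass either. Of these, Eif3c passed as lower without wild-type replicate 2 (adjusted p = 0.0332, edgeR) and Eif3b as higher after the adjustment for base composition and length (adjusted p = 0.0433, edgeR). Over the complex, the summed level was 5430.0 ± 66 CPM in knockdown (SD, n = 3) and 5663 ± 121 CPM in wild-type (SD, n = 4).

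Late initiation factors rose or did not pass. Eif5b, the GTPase that joins the subunits (chromosome 1, 37998010 to 38055579, plus strand), was at 1457, 1408 and 1385 CPM in the knockdown libraries, against 1172, 1023, 1129.8 and 1208 CPM in the wild-type libraries. It rose under every setting (log2 fold change 0.32, SE 0.06, adjusted p = 7.77e-05). Eif6, which keeps free large subunits from joining and takes part in their assembly in the nucleolus, was at 130.0, 136 and 138 CPM in the knockdown libraries, against 126, 139.9, 139 and 119 CPM in the wild-type libraries. It did not pass (log2 fold change 0.04, SE 0.076, adjusted p = 0.745). Eif4a3, a helicase of the exon junction complex rather than of cap-dependent initiation, was at 331, 311 and 319 CPM in the knockdown libraries, against 266, 297, 291 and 266 CPM in the wild-type libraries. It rose slightly (log2 fold change 0.19, SE 0.064, adjusted p = 0.0208; 24.4% of its stretches are shared), and the call was lost without knockdown replicate 1 or 3 or wild-type replicate 1 or 4 (adjusted p up to 0.103, edgeR).

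Eif5a, which carries the hypusine residue and relieves stalled ribosomes, was at 1051, 771 and 1109 CPM in the knockdown libraries, against 671, 1007, 979.9 and 1012 CPM in the wild-type libraries. Knockdown replicate 2 and wild-type replicate 1 were low, the ranges overlapped, and the difference did not pass (log2 fold change 0.09, SE 0.21, adjusted p = 0.801). Its paralog Eif5a2 averaged 1.25 ± 0.179 CPM in knockdown and 1.43 ± 0.601 CPM in wild-type, which is few reads (-0.19, adjusted p = 0.871). The 5 untested members had almost no counts. Eef1a2, the muscle and neuron form of eEF1A, Eif4e1b, a germline form of eIF4E, Eif3j1 and Eif3j2 had 0 counts in all 7 libraries, and the Y-linked Eif2s3y had 1. Of the stretches of Eif3j1 and Eif3j2, 54.8% and 91.8% occur in another gene. Exons of Eif3j1 also overlap those of Gm47314 on the same strand and Spg11 on the opposite strand. How the counting treated such reads is not stated, so a count of 0 there does not speak for absence of the eIF3j transcript.

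Levels per length, as mean CPM per kilobase of annotated exon, differed widely within complexes. Eef1a1 was highest, with 998 in knockdown and 1349 in wild-type, followed by Eef2 with 607 in knockdown and 839 in wild-type and Eef1b2 with 547 in knockdown and 621 in wild-type. The order of the first 6 members, with Eif5a, Eif3h and Eif3c after these, was the same in both groups. Within eIF2, Eif2s2 had 194 in knockdown and 252 in wild-type, Eif2s1 had 53.6 in knockdown and 49.6 in wild-type and Eif2s3x had 14.6 in knockdown and 14.8 in wild-type CPM per kilobase. Among the eIF4G genes, Eif4g1 had 165 in knockdown and 119 in wild-type, Eif4g2 had 88.1 in knockdown and 69.9 in wild-type and Eif4g3 had 21.6 in knockdown and 19.6 in wild-type CPM per kilobase. Eif4ebp1 was at place 17 of the 55 tested members in knockdown and at place 10 in wild-type, while Eif4g1 was at place 10 in knockdown and at place 13 in wild-type. Reads shared with other genes and unused annotated exons both move these values, and no interval was computed for them.

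**Figure D4:**
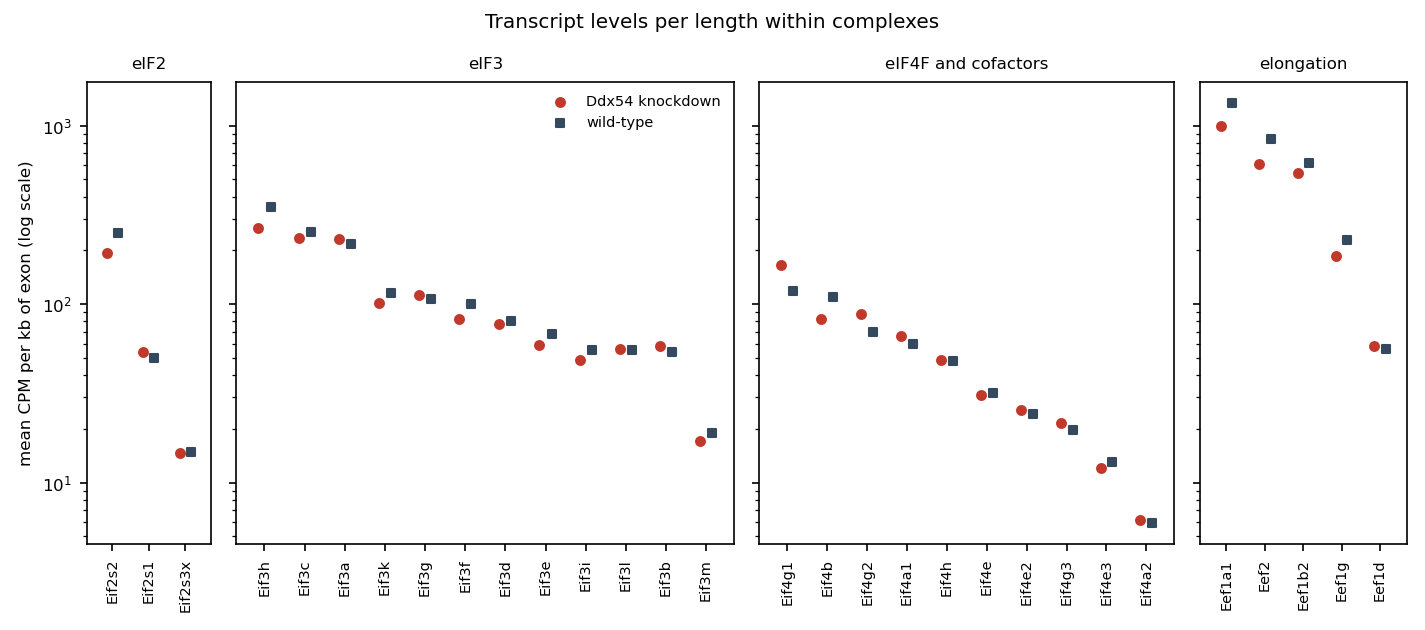
Mean CPM per kilobase of exon (y axis, log scale) of the tested members of eIF2, eIF3, eIF4F with its cofactors and the elongation factors; circles are knockdown (n = 3) and squares are wild-type (n = 4), without error bars. Eif2s2 lies above Eif2s1 and Eif2s3x in both groups, and Eef1a1 is the highest of those drawn.

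Higher and lower members differed in the median length of their annotated exons, but the ranges overlapped widely. They ran from 2122 to 10166 bases for higher and from 1612 to 7408 bases for lower members. The median exon length was 6820 bases for the 7 higher members and 3324 bases for the 17 lower members, against 3511 bases for the 31 members that did not pass. Over all tested genes it was 5210 bases for higher and 4332 bases for lower calls. Median GC content was 43.7% for higher and 49.8% for lower members. Across the 55 members the correlation of fold change with log2 exon length was weak (Pearson r = 0.20, Spearman rho = 0.20, one point per gene from the same libraries), and with GC content it was 0.02 and 0.07. After the adjustment for base composition and length 16 members were lower and 10 higher, and 16 of the 17 lower and 6 of the 7 higher calls were kept.

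The letters CACGTG, the E-box that Myc and related factors bind, occurred in the promoters of 12 of 46 members (26.1%), against 12.1% of tested genes and 8.09% of all genes with a promoter. The motif was sought in 300 bases around the start, and it reads the same on both strands. Unlike the tested genes, the 46 members include some that were not tested. Among those with a promoter, the motif occurred in 4 of 10 members that fell, Eef2, Eef2k, Eif3f and Eif3k. It also occurred in 1 of 6 that rose, Eif4g1, and in 7 of 27 that did not pass, among them Eif4e, Eif4a1 and Eif5a. It thus occurred on both sides, in a larger share of the lower members, and the difference in shares was not tested. The sites of the 5 called members, of which Eif4g1 has 2, are shown with their flanks, with CACGTG in capitals (RefSeq, GRCm38.p6).
Eef2, lower in knockdown, chr10:81176571-81176610, plus strand: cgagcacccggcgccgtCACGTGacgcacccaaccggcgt
Eif3f, lower in knockdown, chr7:108934330-108934369, plus strand: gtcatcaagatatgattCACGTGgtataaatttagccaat
Eif3k, lower in knockdown, chr7:28981910-28981949, minus strand: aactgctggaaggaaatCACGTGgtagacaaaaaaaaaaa
Eef2k, lower in knockdown, chr7:120842783-120842822, plus strand: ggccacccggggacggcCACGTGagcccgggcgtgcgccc
Eif4g1, higher in knockdown, chr16:20672656-20672695, plus strand: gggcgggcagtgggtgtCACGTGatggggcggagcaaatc
Eif4g1, higher in knockdown, chr16:20672717-20672756, plus strand: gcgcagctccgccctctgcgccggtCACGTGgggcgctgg
The letters TGATGCAA, a form of the element that ATF4 binds with C/EBP factors, occurred on either strand in 0 of the 46 member promoters. They occurred in 0.799% of those of tested genes, so a count of 0 in 46 says little. Eif4ebp1, named above as an ATF4 target, was not among the members with a promoter and was not searched.

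Of 59 tested genes in lists of other translation genes, 10 rose and 13 fell, or 16.9% and 22.0%, against the shares of all tested genes given above. Without knockdown replicate 2 the higher calls came to 5, and without knockdown replicate 1 to 6. Of 5 tested poly(A)-binding proteins and their interactors 4 fell and 0 rose, with a median log2 fold change of -0.30. Pabpc1 and Pabpc4 bind the mRNA tail and contact eIF4G, while Paip2 and Paip2b are known as inhibitors of that binding. Pabpc1, itself known as a TOP transcript, was at 6674, 5767 and 6466 CPM in the knockdown libraries, against 7800.1, 8395, 8694 and 8034 CPM in the wild-type libraries. The groups did not overlap (log2 fold change -0.39, SE 0.058, adjusted p = 3.22e-06). Pabpc4 (-0.30, adjusted p = 0.00704), Paip2 (-0.25, adjusted p = 0.00524) and Paip2b (-0.44, adjusted p = 0.0484) also fell. Pabpc4 lost its call without knockdown replicate 3 (adjusted p = 0.102, edgeR), Paip2 without knockdown replicate 1 (adjusted p = 0.0671, edgeR), and Paip2b under 8 of the 16 other settings (adjusted p up to 0.237, edgeR).

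Among eIF2 kinases and phosphatase subunits 1 fell, 1 rose and 4 did not pass. Ppp1r15a, the stress-induced subunit that directs dephosphorylation of eIF2, was at 22.9, 28.5 and 23.8 CPM in the knockdown libraries, against 68.1, 62.7, 73.1 and 72.3 CPM in the wild-type libraries. It fell to 36.3% of wild-type (log2 fold change -1.46, SE 0.12, adjusted p = 8.8e-12), while Eif2ak2, the kinase PKR, rose (0.53, adjusted p = 0.00433). In the list of mTORC1, eIF4E kinases and TOP regulators 3 fell and 1 rose of 13. Pdcd4, an inhibitor of eIF4A, was at 73.6, 57.6 and 46.9 CPM in the knockdown libraries, against 108, 94.9, 89.5 and 108 CPM in the wild-type libraries. Every knockdown library was below every wild-type library, and it fell (-0.75, adjusted p = 6.6e-06). Mknk1, a kinase of eIF4E, fell (-0.89, adjusted p = 0.000245) and Mlst8, a subunit of mTORC1, rose (0.71, adjusted p = 0.000441). Rheb, the other lower gene of this list, fell without overlap (-0.40, adjusted p = 0.00211). Larp1, which binds TOP transcripts, did not pass (0.04, adjusted p = 0.681).

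Of the 6 helicases and GTPases of initiation and selenocysteine decoding 2 rose and 1 fell. Ddx3x, a DEAD-box helicase that aids scanning, was at 401, 386 and 402 CPM in the knockdown libraries, against 299, 274, 303 and 292 CPM in the wild-type libraries. It rose without overlap (log2 fold change 0.44, SE 0.062, adjusted p = 1e-06). Gtpbp2, a GTPase that rescues stalled ribosomes, fell (-0.67, adjusted p = 0.00068). Secisbp2, which reads selenocysteine signals, rose (0.48, adjusted p = 0.0436) but lost its call under 8 of the 16 other settings (adjusted p up to 0.176, edgeR). Release and recycling genes, which end a round of synthesis and free the subunits, and the enzymes that modify eIF5A and eEF2 were mixed. The list of termination, recycling and rescue factors had 2 higher, 2 lower and 6 that did not pass. Gspt2 was higher (0.86, adjusted p = 0.0115) and Hbs1l lower (-0.27, adjusted p = 0.0403). Abcf1, which the list holds although it is not a release or recycling factor, was higher (0.26, adjusted p = 0.00242). Of 8 hypusine and diphthamide enzymes Dph2 (0.72, adjusted p = 0.00907) and Dph3 (0.36, adjusted p = 0.0171) rose and Dph6 (-0.65, adjusted p = 1.21e-05) fell. Of 11 mitochondrial translation factors Gfm1 (0.36, adjusted p = 0.0322) and Mtfmt (0.48, adjusted p = 0.0494) rose and Mrrf, the recycling factor, fell (-0.60, adjusted p = 0.00299). The calls of Hbs1l, Gfm1 and Mtfmt were lost under at least 6 of the 16 other settings. Those of Gspt2 and Dph2 were lost without knockdown replicate 2 (adjusted p = 0.0525 and 0.0523, edgeR), and that of Dph3 without knockdown replicate 1 or 3 or wild-type replicate 2 (adjusted p up to 0.0624, edgeR).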

How the data were processed

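The authors deposited raw read counts in 1 table of 24419 gene symbols, with 0 columns that belong to no sample. Per the submitters' processing notes, Trimmomatic, STAR, HTSeq and mm10 were used, with no version or role given. Annotation, strand setting and the handling of multi-mapping reads are not stated in the sources at hand, so antisense genes and near-identical copies are uncertain. The counts went into edgeR 4.0.16 (R 4.3.3) with filterByExpr on the group, TMM factors and the robust quasi-likelihood test of 3 knockdown against 4 wild-type libraries, with no covariate. The test was fitted on all 11594 genes kept and was checked on simulated counts. SE is the absolute log2 fold change over the square root of F. Precision follows the counts, so members at a few CPM have wide errors. No pair of libraries in a group agreed within sampling noise (chi-square over its degrees of freedom, 8.31 to 16.3).

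Positions, exon lengths and GC content come from GENCODE M21 (GRCm38/mm10), in which 96.3% of the tested symbols were found, and promoter sequences from RefSeq (GRCm38.p6). Shared stretches are 50-base runs of the longest transcript found in a transcript of another GENCODE gene; 50 is nominal, since the read length is not given. Values per library were given for up to 4 called members of each role with the largest change, for the 2 of smallest p in roles with fewer than 2 calls, and for Eif2s1, Eif4e, Eif4ebp1, Eif4g1, Eif5a, Eif6, Eef1a1 and Eef2; lists of other translation genes gave up to 3 called genes, or the 1 with the smallest p. Larp1, Paip2, Rheb and Pabpc1's TOP status were added after values were seen. Members and lists were chosen with earlier results of these data known. Alternatives were RLE and upper-quartile factors, no filter, at least 50 counts in 3 libraries, removal of Rn45s, a loess correction for GC content and length (span 0.5), the replicate number as a block, DESeq2 1.42.0, limma-voom 3.58.1 and each library left out in turn.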

Additional observations from a re-analysis of the deposited data

Results flagged for a closer look

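Among the 4 wild-type libraries, the 55 tested members and their summed CPM were searched for a library far from the others. Of these 56 quantities 3 had one, where chance gives about 2.8. Eif4a1 was at 222.1 CPM in wild-type replicate 4 and at 268.1 to 271.1 CPM in the other wild-type libraries; without that replicate its log2 fold change was 0.09 (adjusted p = 0.327, edgeR), against 0.16 with it. Eif4ebp2 was at 94.5 CPM in wild-type replicate 1 and at 122.3 to 126.6 CPM in the others, and its call was kept without that replicate. Eif5a was at 671.3 CPM in wild-type replicate 1 and at 979.9 to 1012 CPM in the others. Groups of 3 are too small for this search, so the knockdown libraries were not searched.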

How the results depend on the processing

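Across the settings 13 to 17 members were lower and 5 to 10 higher, each within 1.5 times the reported 17 and 7. With RLE factors, upper-quartile factors, no filter, the stricter filter, removal of Rn45s and limma-voom, all 24 calls were kept and none was added; DESeq2 added Eif2b1 (adjusted p = 0.0449). The median log2 fold change of the tested members was -0.040 after adjusting for base composition and length, against -0.060 as reported, and -0.075 to -0.032 with 1 library left out; leaving out wild-type replicate 3 gave the value nearest 0. The cause was not tested. Genes of the other translation lists called higher fell to between 5 and 9 with 1 library left out, against 10 as reported, the fewest without Ddx54 knockdown replicate 2 (5) and replicate 1 (6), where fewer samples were fitted. Fold changes that did not pass changed sign: with 1 library left out they spanned -0.0588 to 0.003 for Eif4e and -0.0042 to 0.0713 for Eif6 (sign turned without wild-type replicate 4), -0.035 to 0.2345 for Eif5a (turned without wild-type replicate 1, -0.035, or Ddx54 knockdown replicate 3, -0.0105) and -0.4193 to 0.0735 for Eif5a2 (turned without wild-type replicate 3). Same-numbered libraries did not deviate together (correlations from -0.034 to -0.0063). The numbers thus gave no sign of pairing, but the labels do not say whether they pair samples. With the replicate number as a block 5 members were higher and 16 lower, all among the reported calls; Eef2k, Eif1ax and Eif4a3 were not called, and Eif4e (0.0023) and Eif6 (-0.0037) changed sign. In the other translation lists the block left 7 higher and 9 lower; Pabpc4, Paip2b, Etf1, Hbs1l, Dph3, Gfm1, Mtfmt and Secisbp2 were not called and Rptor was added as higher. Eif5a2 and Eef2k rest on the fewest reads of the tested members.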
